A study of Homo sapiens with 6 samples.

Results

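The RNAs described here are antisense RNAs whose gene symbol ends in -AS1, measured in the human acute myeloid leukaemia line MV4-11 with and without knockdown of ENO1, the glycolytic enzyme enolase 1. The members were selected on their counts: a row of the count table belonged when its Ensembl ID mapped to a symbol with that ending, EPB41L4A-AS1 aside, and its counts summed to at least 60 over the 6 libraries. Of 23227 genes in the table, 936 carried such a symbol and 435 met the rule. The summed counts therefore describe the members and support nothing. MRPL23-AS1 and H1-10-AS1 lay just inside the limit with 60 counts each and KCNIP2-AS1 and TSPEAR-AS1 with 61. Just outside it, with 59 counts each, lay TM4SF19-AS1, PNN-AS1, UBOX5-AS1, TMC3-AS1, JDP2-AS1, HLCS-AS1 and ZRANB2-AS1. The first group held 3 libraries of MV4-11 cells labelled as ENO1 knockdown, for which the columns name a single hairpin, sh2. The second held 3 libraries of the same line, titled NC, a term the labels do not spell out, and described there as wild type and without treatment. Whether the NC cells carried a control hairpin is not given, and each group comes from this single line.

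An antisense RNA is transcribed from the strand opposite to a named gene, here called its partner. Human gene nomenclature gives the ending -AS1 to the first long noncoding RNA named from the strand opposite to a protein-coding gene. Such RNAs may start from a promoter shared with the partner and run away from it, overlap its exons, or lie in its introns. Many are kept at low levels by the nuclear RNA exosome and its adaptors, which degrade noncoding transcripts, and some are known to affect the RNA or the transcription of their partners.

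ENO1 itself was read first as a check of the labels. It had 2225, 2225 and 2070 counts in the knockdown libraries, against 84016, 79566 and 80058 in the NC libraries, which left 3.13% of the NC level. In CPM (counts scaled to a common library total) on TMM-scaled library sizes this was 102 ± 1.25 in knockdown libraries and 3260 ± 22.6 in NC libraries (SD, n = 3 each), with an edgeR adjusted p of 5.98e-37. Its own antisense RNA, ENO1-AS1, was not a member: it had 1, 4 and 5 counts in the knockdown libraries, against 9, 3 and 10 in the NC libraries, 32 in all, and was not tested. Library totals were 20044602 to 21670135 counts in the knockdown group and 24778469 to 26373960 in the NC group. The shallower knockdown libraries nevertheless had counts for more genes, 20407 to 20462, against 19870 to 19883 in the NC libraries. Knockdown replicate 3 and NC replicate 2 stood apart from their groups, since a chi-square of their counts, divided by its degrees of freedom, came to 4.04 and 4.21 against the other knockdown libraries and 2.85 and 3.16 against the other NC libraries. The remaining pair had 2.29 in the knockdown group and 2.10 in the NC group. The labels do not name separate cultures within a group, so p-values measure the spread between these libraries.

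Markers of the line were present. FLT3, a receptor kinase of myeloid blasts, averaged 1020 ± 29.5 CPM in knockdown libraries and 808 ± 10.2 in NC libraries, and CD33, a myeloid surface antigen, 148 ± 3.09 in knockdown and 126 ± 4.37 in NC libraries (SD, n = 3 each). Other myeloid markers moved further and in both directions. MPO, the granule enzyme myeloperoxidase, fell to 3.66 ± 0.278 CPM in knockdown libraries, against 22.4 ± 1.19 in NC libraries (log2 −2.61 ± 0.10, edgeR adjusted p = 5.17e-18). LYZ, the lysozyme gene, fell to 51.4 ± 1.01 CPM in knockdown libraries, against 274 ± 3.43 in NC libraries (log2 −2.42 ± 0.04, edgeR adjusted p = 3.23e-27). ANPEP, the surface peptidase CD13, rose to 45.5 ± 0.479 CPM in knockdown libraries, against 11.0 ± 1.10 in NC libraries, and ITGAM, the integrin chain CD11b, to 41.9 ± 0.206 CPM in knockdown libraries, against 11.9 ± 0.151 in NC libraries (log2 2.04 ± 0.07 and 1.81 ± 0.07, edgeR adjusted p-values of 3.41e-19 and 8.35e-19). Of 11 tested myeloid markers, 6 rose and 4 fell, and the list summed to 1930 to 1940 CPM in knockdown libraries and 1980 to 2000 in NC libraries. CD14, which marks monocytes, was near 0 at 0.447 ± 0.344 CPM in knockdown and 0.461 ± 0.341 in NC libraries. The T cell list summed to at most 0.279 CPM and the erythroid list to at most 0.136 CPM in any library. CD79A, a B cell receptor component, rose, at 0.833 ± 0.221 CPM in knockdown libraries and 0.257 ± 0.174 in NC libraries (SD, n = 3 each, edgeR adjusted p = 0.00319). The epithelial and fibroblast list summed to 23.4 to 24.0 CPM in knockdown and 8.20 to 8.79 in NC libraries, nearly all of it the keratin KRT8, which rose, while EPCAM and COL1A2 were near 0. The part of these lists in the antisense results was not tested.

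More AS1 RNAs were higher than lower in the knockdown. Of the 435 members, 430 passed the filter on low counts, and 105 of these (24.4%) were higher in knockdown libraries and 36 (8.37%) lower at an edgeR adjusted p below 0.05. The remaining 289 did not pass the test. Of the members, 36 had under 30 counts in 1 group and met the limit of 60 through the other, so a difference was part of their selection and their counts and folds are a description. Over all 14635 genes tested, 29.4% were higher and 30.5% lower. The share of AS1 RNAs that rose was thus below the background and the share that fell was further below it. The median log2 fold change was 0.18 over the AS1 RNAs tested, with 282 positive and 148 negative, and 0.004 over all genes tested. In this bulk RNA, a change in the level of an RNA per cell and a change in the number of cells that carry it cannot be told apart.

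Calls were more frequent among members with more counts. Among the 77 AS1 RNAs with 1000 or more counts, 37 (48.1%) rose and 12 (15.6%) fell. Other genes in that class had 31.2% higher and 40.2% lower of 9505, and other genes of long noncoding types 39.7% and 26.1% of 184. With 200 to 999 counts, 43 of 174 AS1 RNAs rose and 17 fell, and with 60 to 199 counts 25 of 179 rose and 7 fell. Other genes with 200 to 999 counts had 31.3% higher and 17.3% lower of 2376, with a median log2 fold change of 0.13. Those with 60 to 199 counts had 20.6% and 8.38% of 2113, with a median of 0.20. In those lower classes, other genes of long noncoding types had 25.9% higher and 12.4% lower of 509, and 15% and 6.71% of 775. Over all counts, 21.6% of 1562 other genes of long noncoding types rose and 10.9% fell, with a median of 0.17, close to that of the AS1 RNAs. Long noncoding genes that are not AS1 RNAs thus also had more higher than lower calls, and so did other genes of any type with 60 to 999 counts. The excess of higher calls is therefore not particular to AS1 RNAs, and no difference between these classes was tested.

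By size, 32 AS1 RNAs were called and at least 2-fold higher and 12 at least 2-fold lower, where the background was 6.51% and 3.56% of all genes tested. All 3 knockdown libraries lay above all 3 NC libraries for 127 AS1 RNAs and below them for 44, against a background of 31.8% and 32.5% of genes. AS1 RNAs that were called higher had a median log2 fold change of 0.79 and those called lower −0.79, while the medians over all called genes were 0.49 and −0.39. At few counts only large differences pass the test. Together the members made up 0.333%, 0.329% and 0.327% of the counts in the knockdown libraries, against 0.269%, 0.271% and 0.270% in the NC libraries, and the groups did not overlap. Without SLC9A3-AS1, the most abundant member, these shares were 0.269%, 0.268% and 0.270% in the knockdown libraries, against 0.224%, 0.226% and 0.225% in the NC libraries. Mitochondrial genes moved the same way, with shares between 9.27% and 9.69% of counts in knockdown libraries and between 6.69% and 6.88% in NC libraries, and their part in the shares was not tested.

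**Figure D1:**
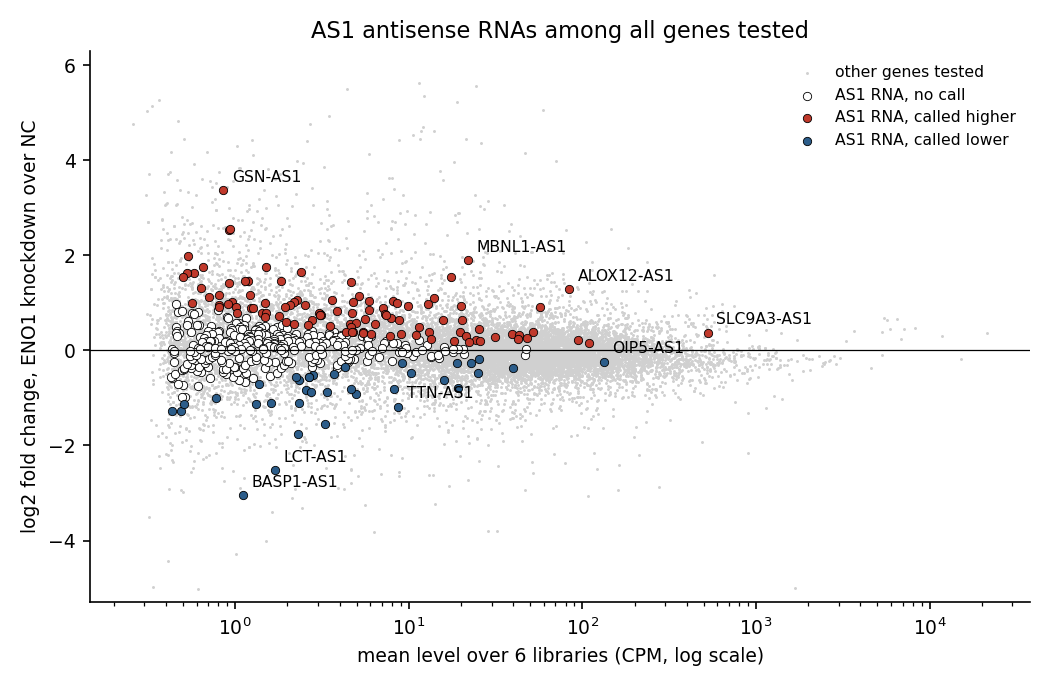
Log2 fold change of each gene, ENO1 knockdown over NC (vertical axis), against its mean level over the 6 libraries in CPM on a log axis. Grey points are all other genes tested, filled circles are AS1 RNAs called higher (red, 105) or lower (blue, 36), and open circles are AS1 RNAs without a call; the called AS1 RNAs reach from GSN-AS1 at 3.36 to BASP1-AS1 at −3.05.

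Reads of an antisense RNA and of a gene on the opposite strand can be mixed up in these counts. The strand setting of the counting is not given in the sources used here, and the library kit named in the labels is not one known to keep the strand. In the GENCODE 29 annotation, 354 of the 433 members it holds shared exonic bases with another gene, 316 of them with the partner, and the median share of a member's exons was 11.4%. For 202 members, over 10% of the 50-base stretches of their transcripts also occurred in transcripts of other genes on either strand. Their values are uncertain, and so are those of named RNAs below for which such a share is given. Of the 78 tested members without any exon overlap, 21 (26.9%) rose and 8 (10.3%) fell, near the shares over all members.

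Most AS1 RNAs were rare. The mean level over the 6 libraries had a median of 1.84 CPM and ran from 0.427 to 527 CPM. SLC9A3-AS1, opposite the gene of the sodium-proton exchanger NHE3, was the most abundant (chromosome 5, 473236 to 480884, plus strand). It had 13439, 13218 and 11374 counts in the knockdown libraries, against 11979, 11211 and 11166 in the NC libraries, that is 595 ± 33.0 CPM in knockdown and 460 ± 1.90 in NC libraries (SD, n = 3 each). Every knockdown library lay above every NC library in CPM, with a log2 fold change of 0.37 ± 0.03 (SE) and an edgeR adjusted p of 1.8e-10. Its exons overlapped those of SLC9A3 over 19.3% of their length and 13.0% of its 50-base stretches were shared. SLC9A3 rose too, to 97.3 ± 7.71 CPM in knockdown libraries against 81.8 ± 3.46 in NC libraries (log2 0.25 ± 0.05, edgeR adjusted p = 0.000117). Per kilobase of exon, the antisense RNA was the higher of the pair, with 138 and 17.3 CPM per kilobase in knockdown libraries, against 107 and 14.5 in NC libraries.

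Among the 10 members with the highest mean CPM, ALOX12-AS1 had the largest log2 fold change. ALOX12-AS1 (chromosome 17, 6876635 to 7012349, minus strand), opposite the gene of a 12-lipoxygenase that oxidises arachidonic acid, had 2635, 2625 and 2366 counts in the knockdown libraries, against 1252, 1264 and 1134 in the NC libraries. It rose 2.44-fold (119 ± 3.06 CPM in knockdown and 48.9 ± 2.70 in NC libraries, log2 1.29 ± 0.05, edgeR adjusted p = 3.92e-19), with 12.4% of its 50-base stretches shared. BAZ2B-AS1, opposite the gene of a bromodomain protein, rose 1.88-fold, to 74.3 ± 3.13 CPM in knockdown libraries against 39.5 ± 2.06 in NC libraries (edgeR adjusted p = 1.37e-14), with 28.9% of its stretches shared. GABPB1-AS1, PAN3-AS1, OTUD6B-AS1 and FGD5-AS1 rose by 0.21, 0.39, 0.25 and 0.15 on the log2 scale, with edgeR adjusted p-values of 0.000153, 7.42e-07, 0.000493 and 0.00212. OIP5-AS1 (chromosome 15, 41283990 to 41309737, plus strand), known as Cyrano and in mouse for its control of the microRNA miR-7, was the abundant member that fell. It had 2519, 2639 and 2668 counts in the knockdown libraries, against 3794, 3652 and 3370 in the NC libraries (123 ± 7.5 CPM in knockdown and 145 ± 5.88 in NC libraries, log2 −0.24 ± 0.04, edgeR adjusted p = 2.01e-05). MRPL20-AS1 did not pass, with a log2 fold change of 0.03 ± 0.06 and an edgeR adjusted p of 0.651. Its sign turned to −0.009 without NC replicate 2.

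The 10 largest rises among members whose groups did not overlap were GSN-AS1, SLC8A1-AS1, DIRC3-AS1, UBE2Q1-AS1, MBNL1-AS1, ST8SIA6-AS1, HEXA-AS1, CBR3-AS1, GPR84-AS1 and TRD-AS1. All but MBNL1-AS1, ST8SIA6-AS1 and CBR3-AS1 had under 30 counts summed over the NC libraries. These met the limit of 60 counts only through the knockdown libraries, so their folds and p-values describe RNAs whose selection required them to be higher there. GSN-AS1 (chromosome 9, 121280768 to 121285530, minus strand) lies opposite the gene of gelsolin, which severs actin filaments. It had 45, 29 and 26 counts in the knockdown libraries, against 4, 2 and 5 in the NC libraries, a 10.3-fold rise (1.56 ± 0.459 CPM in knockdown and 0.147 ± 0.0619 in NC libraries, log2 3.36 ± 0.44, edgeR adjusted p = 2.11e-07). With 5.86% of its exonic bases in exons of the far more abundant GSN and 7.19% of its stretches shared, its level is uncertain. MBNL1-AS1 (chromosome 3, 152262616 to 152269555, minus strand), opposite the gene of the splicing regulator muscleblind, was the best-counted of them. It had 771, 717 and 731 counts in the knockdown libraries, against 239, 230 and 225 in the NC libraries, and rose 3.74-fold (34.8 ± 1.94 CPM in knockdown and 9.29 ± 0.119 in NC libraries, log2 1.90 ± 0.08, edgeR adjusted p = 7.05e-18). With 17.3% of its exonic bases in MBNL1 exons and 15.9% of its stretches shared, its level is uncertain, and the part of shared reads was not tested. MBNL1 stayed without a call at 386 ± 23.0 CPM in knockdown libraries and 383 ± 5.45 in NC libraries (edgeR adjusted p = 0.79). MBNL1-AS1 thus stood at 8.73 to 9.47 counts per 100 MBNL1 counts among knockdown libraries, against 2.38 to 2.46 among NC libraries.

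SLC8A1-AS1, opposite the gene of a sodium-calcium exchanger, had 28, 35 and 39 counts in the knockdown libraries, against 4, 9 and 7 in the NC libraries (log2 2.55 ± 0.38, edgeR adjusted p = 1.98e-06), with 18.7% of its stretches shared. DIRC3-AS1 lies in introns of DIRC3, itself a long noncoding gene that was almost without counts, and had 29, 39 and 33 counts in the knockdown libraries, against 7, 7 and 6 in the NC libraries (log2 2.54 ± 0.37, edgeR adjusted p = 1.09e-06). UBE2Q1-AS1, opposite the gene of a ubiquitin-conjugating enzyme, rose 3.95-fold on 16 to 20 counts per knockdown library and 3 to 8 per NC library (edgeR adjusted p = 0.000443). These 3 RNAs rested on few counts in the NC libraries. HEXA-AS1 starts head-to-head with HEXA, the gene of a lysosomal hexosaminidase subunit, with start sites 363 bases apart. It had 19, 20 and 25 counts in the knockdown libraries, against 6, 9 and 7 in the NC libraries (log2 1.75 ± 0.41, edgeR adjusted p = 0.000537), with 12% of its stretches shared. HEXA did not pass, at 31.8 ± 2.06 CPM in knockdown libraries and 31.9 ± 3.94 in NC libraries (edgeR adjusted p = 0.967). CBR3-AS1, opposite the gene of a carbonyl reductase that had at most 11 counts in any library, rose 3.13-fold, to 3.64 ± 0.307 CPM in knockdown libraries, against 1.16 ± 0.300 in NC libraries (edgeR adjusted p = 3.82e-07), with 15.2% of its stretches shared. TRD-AS1, at the T cell receptor delta locus, had 13, 17 and 26 counts in the knockdown libraries, against 10, 8 and 3 in the NC libraries (log2 1.63 ± 0.46, edgeR adjusted p = 0.00332), and 14.1% of its stretches were shared.

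**Figure D2:**
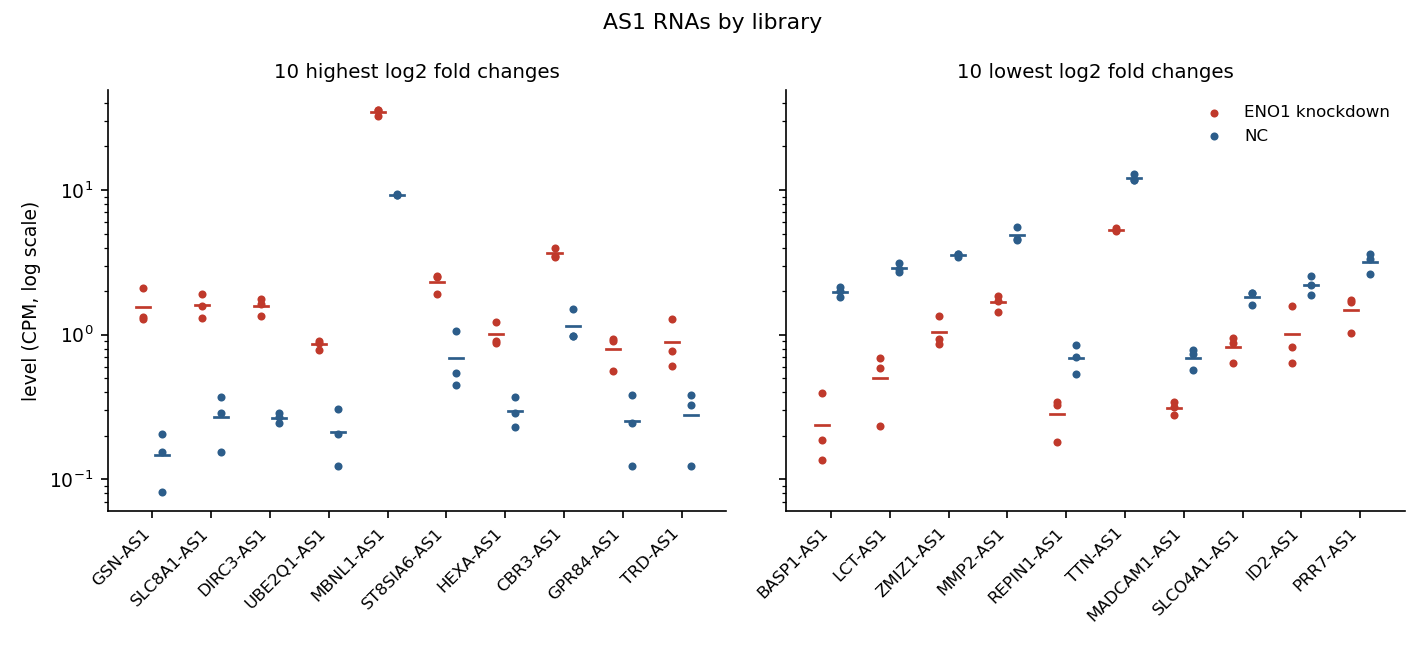
Level in CPM (log axis) of the 10 AS1 RNAs with the highest and the 10 with the lowest log2 fold changes among those called with groups that did not overlap. Each point is a library, ENO1 knockdown in red left of NC in blue, and the short lines are group means; MBNL1-AS1 stands highest among those that rose, with means of 34.8 and 9.29 CPM, and TTN-AS1 among those that fell, with 5.32 and 12.1 CPM.

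The 10 largest falls among called members whose groups did not overlap were those of BASP1-AS1, LCT-AS1, ZMIZ1-AS1, MMP2-AS1, REPIN1-AS1, TTN-AS1, MADCAM1-AS1, SLCO4A1-AS1, ID2-AS1 and PRR7-AS1. BASP1-AS1, REPIN1-AS1 and MADCAM1-AS1 had under 30 counts summed over the knockdown libraries and met the limit of 60 only through the NC libraries, so their values are a description too. BASP1-AS1 (chromosome 5, 17130028 to 17217047, minus strand), opposite the gene of a membrane-bound signalling protein, had 4, 3 and 8 counts in the knockdown libraries, against 47, 49 and 52 in the NC libraries. It fell to 0.238 ± 0.136 CPM in knockdown libraries, against 1.99 ± 0.162 in NC libraries (log2 −3.05 ± 0.38, edgeR adjusted p = 9.27e-08). LCT-AS1 (chromosome 2, 135820191 to 135823087, plus strand) lies opposite the lactase gene, which was nearly without counts. It had 5, 13 and 14 counts in the knockdown libraries, against 81, 66 and 69 in the NC libraries (log2 −2.51 ± 0.30, edgeR adjusted p = 3.28e-08). LCT-AS1 stood at 0.504 ± 0.240 CPM in knockdown libraries and 2.89 ± 0.214 in NC libraries.

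MMP2-AS1, in introns of the gene of the matrix metalloproteinase gelatinase A as GENCODE 29 places it, had 31, 41 and 35 counts in the knockdown libraries, against 143, 110 and 112 in the NC libraries (log2 −1.54 ± 0.18, edgeR adjusted p = 4.61e-08). MMP2 fell with it, to 56.5 ± 2.10 CPM in knockdown libraries against 93.2 ± 1.38 in NC libraries (log2 −0.72 ± 0.04, edgeR adjusted p = 6.64e-14), and the antisense RNA stood at 2.53 to 3.19 counts per 100 MMP2 counts among knockdown libraries, against 4.89 to 5.86 among NC libraries. SLCO4A1-AS1, opposite the gene of an organic anion transporter, fell by 1.13 on the log2 scale (0.825 ± 0.165 CPM in knockdown and 1.82 ± 0.190 in NC libraries, edgeR adjusted p = 0.0012), with 15.9% of its stretches shared, and SLCO4A1 fell by 0.76 (edgeR adjusted p = 1.19e-05). REPIN1-AS1, with 7, 4 and 7 counts in the knockdown libraries, against 22, 17 and 13 in the NC libraries, fell by 1.28 (edgeR adjusted p = 0.0164), and MADCAM1-AS1, with 6, 7 and 7 in the knockdown libraries, against 19, 14 and 19 in the NC libraries, by 1.14 (edgeR adjusted p = 0.0246, 41.2% of its stretches shared). The call of REPIN1-AS1 was lost without knockdown replicate 2 (edgeR adjusted p = 0.0853) or NC replicate 1 (0.0814) and with DESeq2 (DESeq2 adjusted p = 0.0954). That of MADCAM1-AS1 was lost without knockdown replicate 1 or 2 or NC replicate 1 or 3 (edgeR adjusted p of 0.06 to 0.0782) and with DESeq2 (DESeq2 adjusted p = 0.128).

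The comparison with the partner asks whether an antisense RNA and the gene it is named after changed together. A partner was in the table for 427 members, which named 426 distinct partners. In GENCODE 29, 221 pairs had overlapping exons on opposite strands with start sites further apart, 94 started head-to-head within 1000 bases with overlapping exons and 32 head-to-head with exons apart. A further 71 AS1 RNAs lay within introns or spanned the partner without sharing exonic bases, 6 pairs lay on opposite strands without overlap, and for 10 members it gave no position for the RNA or for a partner. HILPDA-AS1 went against the label, being annotated on the same strand as HILPDA, and it had no call (edgeR adjusted p = 0.901). Per kilobase of exon, the AS1 RNA was above its partner in 66 of 396 pairs and below 10% of it in 157, with a median of 15.4% of the partner's level.

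Both genes could be tested in 398 pairs. Both were called in 94 of them, in the same direction in 70 (74.5%), with 53 pairs higher and 17 lower. In 24 pairs the directions were opposite, with the AS1 RNA higher and its partner lower in 18, and the AS1 RNA lower and its partner higher in 6. In 34 pairs the AS1 RNA alone was called, in 178 the partner alone, and in 92 neither. For scale, among 1074 pairs of other neighbouring genes on opposite strands with both called, 63.9% moved in the same direction. By position, the AS1 RNA and its partner moved in the same direction in 39 of 47 pairs with overlapping exons, 14 of 21 head-to-head pairs with overlapping exons, 12 of 16 pairs in introns and 4 of 7 head-to-head pairs with exons apart. The other neighbours in these classes had 62.7%, 62.4%, 66.9% and 65.2%. The highest share of AS1 pairs in the same direction was thus in a class with overlapping exons. The head-to-head class with overlapping exons, at 66.7%, was below the class in introns, at 75.0%. The part of shared reads was not tested. Among members that share no exonic base with any gene, 12 pairs moved in the same and 8 in opposite directions, a less uneven split than over all pairs. Across the 398 pairs Pearson's r of the log2 fold changes was 0.33 and Spearman's rho 0.30, a description over pairs that share the same 6 libraries. Of 402 partners tested, 150 (37.3%) were higher and 125 (31.1%) lower, where the background was 29.4% and 30.5%.

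**Figure D3:**
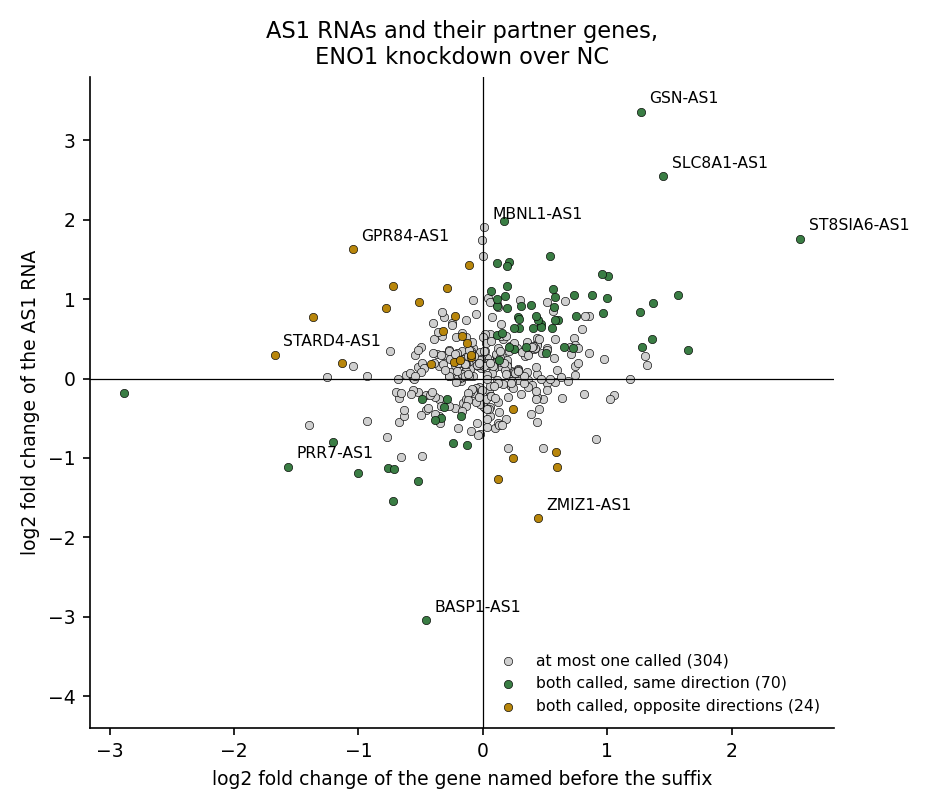
Log2 fold change of each AS1 RNA (vertical axis) against that of the gene named before the suffix (horizontal axis), ENO1 knockdown over NC, for the 398 pairs tested. Green points are the 70 pairs called in the same direction, orange points the 24 called in opposite directions, and grey points the pairs in which at most a single gene was called.

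Among the 24 pairs called in opposite directions, the 8 with the largest difference of log2 fold changes were GPR84, ZMIZ1, INHBA, STARD4, SPART, ID2, VASH1 and SRRM2 with their AS1 RNAs. GPR84, a receptor for medium-chain fatty acids, had 50, 34 and 24 counts in the knockdown libraries, against 95, 91 and 75 in the NC libraries (log2 −1.05 ± 0.22, edgeR adjusted p = 0.00019). GPR84-AS1 had 12, 20 and 19 counts in the knockdown libraries, against 10, 3 and 6 in the NC libraries (log2 1.63 ± 0.46, edgeR adjusted p = 0.00347). Its call was lost without knockdown replicate 3 and NC replicate 2 together (log2 1.20, edgeR adjusted p = 0.0594).

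INHBA, which encodes the activin A subunit, had 318, 334 and 290 counts in the knockdown libraries, against 969, 869 and 995 in the NC libraries (log2 −1.36 ± 0.07, edgeR adjusted p = 1.78e-15). INHBA-AS1 (chromosome 7, 41693916 to 41779388, plus strand) shares no exonic base with it in GENCODE 29 and had 115, 110 and 153 counts in the knockdown libraries, against 92, 92 and 74 in the NC libraries (log2 0.78 ± 0.17, edgeR adjusted p = 0.000196). The antisense RNA therefore stood at 32.9 to 52.8 counts per 100 INHBA counts among knockdown libraries, against 7.44 to 10.6 among NC libraries. STARD4, which carries cholesterol between membranes, fell to 8.03 ± 0.719 CPM in knockdown libraries, against 25.6 ± 0.664 in NC libraries (log2 −1.67 ± 0.09, edgeR adjusted p = 1.62e-15). STARD4-AS1 starts 364 bases from it in the other direction and was at 8.58 ± 0.518 CPM in knockdown libraries and 6.97 ± 0.418 in NC libraries (log2 0.30 ± 0.11, edgeR adjusted p = 0.0234), with 13.8% of its stretches shared. The call of STARD4-AS1 was lost without knockdown replicate 2 (edgeR adjusted p = 0.083), knockdown replicate 3 (0.0531) or NC replicate 1 (0.102), without the filter on low counts (0.0544), and with DESeq2 (DESeq2 adjusted p = 0.138). The ratio of both RNAs did not overlap between the groups, at 103 to 111 STARD4-AS1 counts per 100 STARD4 counts among knockdown libraries, against 25.3 to 29.5 among NC libraries.

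SRRM2, a large protein of nuclear speckles, fell slightly, to 1180 ± 31.4 CPM in knockdown libraries against 1280 ± 19.4 in NC libraries (log2 −0.12 ± 0.03, edgeR adjusted p = 0.000512). SRRM2-AS1 (chromosome 16, 2737076 to 2752600, minus strand) starts head-to-head with it, 271 bases away, and had 139, 155 and 142 counts in the knockdown libraries, against 77, 45 and 67 in the NC libraries. It rose 2.70-fold (log2 1.43 ± 0.16, edgeR adjusted p = 2e-08), with 2.71% of its exonic bases in SRRM2 exons. SPART-AS1, opposite the gene of spartin, a lipid droplet protein, rose by 1.17 ± 0.33 on the log2 scale (52, 25 and 31 counts in the knockdown libraries, against 21, 12 and 23 in the NC libraries, edgeR adjusted p = 0.00378), while SPART fell by 0.72 (edgeR adjusted p = 5.3e-14). Without knockdown replicate 1 that rise was 0.82 (edgeR adjusted p = 0.0705). VASH1-AS1, for which 81.6% of the stretches were shared, had 45, 36 and 25 counts in the knockdown libraries, against 29, 18 and 20 in the NC libraries (log2 0.88 ± 0.30, edgeR adjusted p = 0.0135), while VASH1, a tubulin carboxypeptidase, fell by 0.78 (edgeR adjusted p = 1.8e-10). The call of VASH1-AS1 was lost without knockdown replicate 1 (edgeR adjusted p = 0.0997) or NC replicate 2 (0.0559) and with DESeq2 (DESeq2 adjusted p = 0.0682).

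Contrasts of the other kind, with the AS1 RNA lower and the partner higher, were led by ZMIZ1 and ID2. ZMIZ1-AS1 (chromosome 10, 78943328 to 79067895, minus strand) had 29, 19 and 19 counts in the knockdown libraries, against 94, 88 and 84 in the NC libraries (log2 −1.76 ± 0.23, edgeR adjusted p = 1.49e-07). ZMIZ1, a transcriptional coactivator whose gene starts 1140 bases away on the other strand, rose to 277 ± 8 CPM in knockdown libraries, against 204 ± 2.59 in NC libraries (log2 0.44 ± 0.03, edgeR adjusted p = 2.59e-12). The pair shares no exonic base in GENCODE 29. ID2-AS1 had 34, 18 and 13 counts in the knockdown libraries, against 57, 62 and 46 in the NC libraries (log2 −1.12 ± 0.29, edgeR adjusted p = 0.00144). ID2, which binds basic helix-loop-helix factors and keeps them off DNA, rose to 36.3 ± 1.47 CPM in knockdown libraries, against 24.1 ± 0.852 in NC libraries (log2 0.59 ± 0.06, edgeR adjusted p = 3.63e-09).

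Among the 70 pairs called in the same direction, the 8 in which the smaller of both changes was largest were ST8SIA6, SLC8A1, GSN, PRR7, RNF213, ALOX12, TTN and ZNF529 with their AS1 RNAs. ST8SIA6, a sialyltransferase gene, had 304, 296 and 268 counts in the knockdown libraries, against 65, 53 and 55 in the NC libraries (log2 2.55 ± 0.13, edgeR adjusted p = 5.74e-16). ST8SIA6-AS1 (chromosome 10, 17386936 to 17413503, plus strand), which shares no exonic base with it, had 55, 55 and 39 counts in the knockdown libraries, against 14, 26 and 11 in the NC libraries (log2 1.76 ± 0.30, edgeR adjusted p = 1.42e-05). It rose less than its partner, with 14.6 to 18.6 counts per 100 ST8SIA6 counts among knockdown libraries against 20 to 49.1 among NC libraries.

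RNF213, an interferon-induced ubiquitin ligase, rose to 321 ± 2.00 CPM in knockdown libraries, against 108 ± 2.01 in NC libraries (log2 1.57 ± 0.03, edgeR adjusted p = 2.82e-24). RNF213-AS1 had 116, 101 and 95 counts in the knockdown libraries, against 60, 56 and 59 in the NC libraries (log2 1.06 ± 0.17, edgeR adjusted p = 3.75e-06), so the ratio to RNF213 was lower in every knockdown library. GSN rose to 584 ± 16.6 CPM in knockdown libraries, against 242 ± 4.72 in NC libraries (edgeR adjusted p = 8.96e-23), and GSN-AS1 rose further than it, with at least 0.222 counts per 100 GSN counts in every knockdown library, against at most 0.0833 in any NC library. Per kilobase of exon, GSN-AS1 stood at 0.328 and GSN at 53.0 CPM in knockdown libraries, against 0.0309 and 22.0 in NC libraries. The part of reads from the exonic bases they share was not tested. ALOX12 rose alongside its AS1 RNA, at 12.8 ± 1.35 CPM in knockdown libraries, against 6.35 ± 0.414 in NC libraries (edgeR adjusted p = 7.88e-09), and ALOX12-AS1 held 852 to 1030 counts per 100 ALOX12 counts in knockdown libraries against 707 to 843 in NC libraries. SLC8A1 rose to 5.36 ± 0.924 CPM in knockdown libraries, against 1.95 ± 0.235 in NC libraries (edgeR adjusted p = 9.19e-08), and ZNF529 and ZNF529-AS1 rose by 0.99 and 1.01 on the log2 scale (edgeR adjusted p-values of 4.94e-12 and 0.000586). GSN-AS1 and SLC8A1-AS1 met the limit of 60 counts only through the knockdown libraries, so their place among these pairs is a description.

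Of the pairs that fell together, TTN-AS1 is the one most bound to its partner by position. TTN encodes the muscle protein titin, and 55.1% of the exonic bases of TTN-AS1 (chromosome 2, 178521183 to 178779963, plus strand) lie in TTN exons, with 36.1% of its stretches shared. TTN-AS1 had 112, 121 and 107 counts in the knockdown libraries, against 302, 313 and 288 in the NC libraries (log2 −1.18 ± 0.11, edgeR adjusted p = 3.06e-10). TTN had 636, 704 and 694 counts in the knockdown libraries, against 1705, 1491 and 1567 in the NC libraries (log2 −1.0 ± 0.06, edgeR adjusted p = 1.04e-14). Per kilobase of exon both were alike, at 0.258 for TTN-AS1 and 0.268 for TTN in knockdown libraries and 0.586 and 0.536 CPM per kilobase in NC libraries. Reads from the exonic bases they share cannot be told apart without the strand setting, which is not given. PRR7, a membrane adaptor gene, fell to 8.94 ± 2.52 CPM in knockdown libraries, against 26.6 ± 0.196 in NC libraries (log2 −1.57 ± 0.14, edgeR adjusted p = 1.96e-06), and PRR7-AS1 had 22, 38 and 34 counts in the knockdown libraries, against 86, 88 and 64 in the NC libraries (log2 −1.11 ± 0.23, edgeR adjusted p = 0.000142).

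**Figure D4:**
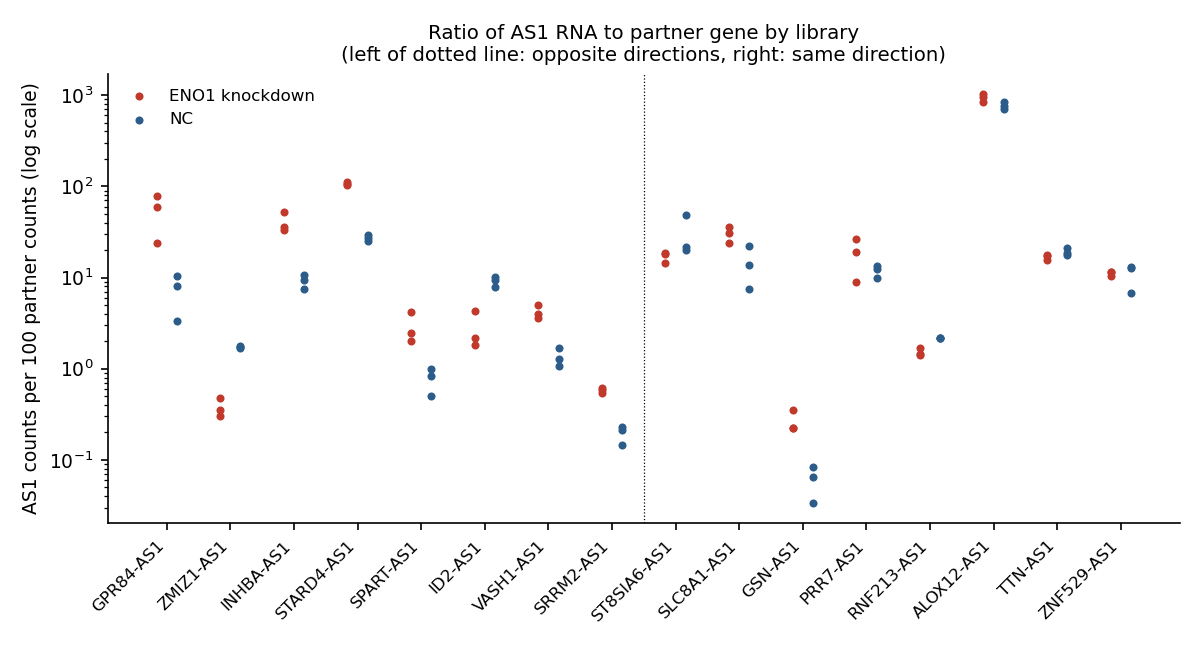
Counts of the AS1 RNA per 100 counts of its partner (log axis) in each library, ENO1 knockdown in red left of NC in blue, for the 8 pairs called in opposite directions (left of the dotted line) and the 8 called in the same direction (right). The groups do not overlap in any of the 8 opposite pairs, as their choice makes likely, and among the others they overlap for PRR7-AS1 and ZNF529-AS1.

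Where a pair is called head-to-head here, both starts lie within 1000 bases of each other, which need not place both in the same window. The 4 windows below are shown because both RNAs of each pair passed in the same direction, the first 2 pairs higher and the last 2 lower in knockdown libraries. They are the RefSeq promoter windows of GRCh38.p14, running from 250 bases before to 50 bases after the start of the AS1 RNA on its own strand: EIF1B-AS1 at chr3:40309649-40309948 (minus strand), CDK6-AS1 at chr7:92836233-92836532 (plus strand), MAPKAPK5-AS1 at chr12:111842956-111843255 (minus strand) and TMEM147-AS1 at chr19:35545980-35546279 (minus strand). Capitals mark an E-box (CACGTG) in the first and CCAAT boxes (CCAAT) in the second. SGMS1-AS1 ranked above some of these and is named only.
EIF1B-AS1: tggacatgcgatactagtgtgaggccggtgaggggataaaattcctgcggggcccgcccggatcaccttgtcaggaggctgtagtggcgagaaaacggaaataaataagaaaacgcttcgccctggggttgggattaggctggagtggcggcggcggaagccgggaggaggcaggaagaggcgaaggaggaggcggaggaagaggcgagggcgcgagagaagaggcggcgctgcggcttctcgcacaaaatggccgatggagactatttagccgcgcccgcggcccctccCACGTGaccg
CDK6-AS1: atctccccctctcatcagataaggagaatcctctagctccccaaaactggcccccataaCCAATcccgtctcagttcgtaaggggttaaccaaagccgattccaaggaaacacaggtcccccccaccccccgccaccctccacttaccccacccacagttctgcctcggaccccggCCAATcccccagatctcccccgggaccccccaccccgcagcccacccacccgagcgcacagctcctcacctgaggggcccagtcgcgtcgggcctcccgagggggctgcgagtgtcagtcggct
MAPKAPK5-AS1: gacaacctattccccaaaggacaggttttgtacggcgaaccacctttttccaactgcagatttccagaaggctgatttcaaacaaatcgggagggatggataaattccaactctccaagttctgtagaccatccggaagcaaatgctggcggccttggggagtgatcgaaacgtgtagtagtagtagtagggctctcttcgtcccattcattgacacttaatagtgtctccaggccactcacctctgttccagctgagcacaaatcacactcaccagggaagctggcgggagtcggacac
TMEM147-AS1: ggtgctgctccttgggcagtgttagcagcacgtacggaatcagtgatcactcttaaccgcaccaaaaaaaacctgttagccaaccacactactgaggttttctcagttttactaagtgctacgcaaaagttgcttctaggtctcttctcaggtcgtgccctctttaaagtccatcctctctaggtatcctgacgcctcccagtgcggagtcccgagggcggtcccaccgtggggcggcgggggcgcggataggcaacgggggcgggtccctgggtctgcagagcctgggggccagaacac

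The first window holds the start of EIF1B, a translation initiation factor gene, on the other strand at base 242, and it overlaps the promoter window of EIF1B over 108 bases. EIF1B-AS1 had 71, 101 and 74 counts in the knockdown libraries, against 55, 52 and 59 in the NC libraries (log2 0.79 ± 0.19, edgeR adjusted p = 0.000681). EIF1B rose almost as much, to 81.8 ± 2.02 CPM in knockdown libraries against 48.8 ± 0.575 in NC libraries (log2 0.75 ± 0.05, edgeR adjusted p = 6.11e-14). Their ratio overlapped between the groups. The second window overlaps that of CDK6, the cell cycle kinase gene, over 9 bases. The start of CDK6 lies beyond the end of this window, at base 341 counted from its first base. CDK6-AS1 had 241, 227 and 217 counts in the knockdown libraries, against 189, 169 and 158 in the NC libraries (log2 0.63 ± 0.11, edgeR adjusted p = 9.25e-06), and CDK6 rose to 499 ± 17.5 CPM in knockdown libraries, against 340 ± 4.58 in NC libraries (log2 0.55 ± 0.03, edgeR adjusted p = 6.46e-15). The ratio of this pair overlapped between the groups as well.

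The windows of MAPKAPK5-AS1 and TMEM147-AS1 hold none of the motifs searched and do not overlap those of their partners. Counted in the same way, the starts of MAPKAPK5 and TMEM147 lie beyond them, at bases 1028 and 654. MAPKAPK5-AS1 lies opposite the gene of a stress-activated kinase, with 34.6% of its exonic bases in MAPKAPK5 exons in GENCODE 29. It fell to 20.7 ± 1.80 CPM in knockdown libraries, against 24.7 ± 0.669 in NC libraries (log2 −0.26 ± 0.07, edgeR adjusted p = 0.00344), with 30.3% of its stretches shared. MAPKAPK5 fell by 0.29 (edgeR adjusted p = 8.07e-06), and the ratio of the pair overlapped between the groups. TMEM147-AS1 fell to 21.0 ± 1.16 CPM in knockdown libraries, against 29.1 ± 2.58 in NC libraries (log2 −0.47 ± 0.07, edgeR adjusted p = 3.44e-06), with 13.0% of its stretches shared. TMEM147, the gene of an endoplasmic reticulum membrane protein, fell by 0.18 (edgeR adjusted p = 0.0148). The ratio of this pair did not overlap, at 31.9 to 39.7 TMEM147-AS1 counts per 100 TMEM147 counts among knockdown libraries, against 40.9 to 48.8 among NC libraries.

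Promoter windows were found for 317 distinct member symbols, and 27305 windows of the same length served as the background. On either strand, the E-box CACGTG occurred in 9.78% of member windows and 7.43% of all, and the CCAAT box in 30.9% and 35.7%. The interferon-stimulated response element, searched as GAAANNGAA, occurred in 6.94% and 8.29%, the gamma-activated site, searched as TTCNNNGAA, in 6.31% and 7.88%, and the cAMP response element TGACGTCA in 3.47% and 1.98%. CACGTG and TGACGTCA have the letters ACGT in common, GAAANNGAA and TTCNNNGAA can share GAA, and each share is a description of the windows alone.

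Further AS1 RNAs were set by name. IRF1-AS1 (chromosome 5, 132410636 to 132488702, plus strand), beside the gene of the interferon regulatory factor IRF1, had 142, 137 and 131 counts in the knockdown libraries, against 75, 91 and 69 in the NC libraries (log2 1.03 ± 0.15, edgeR adjusted p = 1.29e-06), with 30.3% of its stretches shared. IRF1 rose by 0.58 ± 0.06 (edgeR adjusted p = 1.71e-09). TMPO-AS1, which starts 910 bases from the gene of the lamina-associated polypeptide 2, had 415, 432 and 399 counts in the knockdown libraries, against 511, 458 and 459 in the NC libraries, and did not pass (log2 0.03 ± 0.07, edgeR adjusted p = 0.749, 17.0% of stretches shared). TMPO fell to 157 ± 4.96 CPM in knockdown libraries, against 301 ± 14.6 in NC libraries (log2 −0.93 ± 0.04, edgeR adjusted p = 3.76e-18). The ratio therefore stood at 12 to 12.8 TMPO-AS1 counts per 100 TMPO counts among knockdown libraries, against 6.23 to 6.58 among NC libraries.

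PSMA3-AS1, named for a proteasome subunit gene, rose to 47.7 ± 3.29 CPM in knockdown libraries, against 38.3 ± 1.3 in NC libraries (log2 0.31 ± 0.06, edgeR adjusted p = 2.79e-05), while PSMA3 did not pass (edgeR adjusted p = 0.879). THAP9-AS1, which starts 276 bases from the gene of a transposase-derived protein, rose to 44 ± 1.11 CPM in knockdown libraries, against 34.6 ± 1.15 in NC libraries (log2 0.35 ± 0.05, edgeR adjusted p = 3.54e-06, 13.6% of stretches shared), and THAP9 did not pass (edgeR adjusted p = 0.358). ITGB2-AS1, opposite the gene of the leukocyte integrin beta 2 chain, had 30, 42 and 49 counts in the knockdown libraries, against 31, 36 and 15 in the NC libraries, and the groups overlapped. It was called higher (log2 0.79 ± 0.30, edgeR adjusted p = 0.0254), but not without knockdown replicate 2 (0.0574), knockdown replicate 3 (0.124) or NC replicate 3 (0.152), nor with DESeq2 (DESeq2 adjusted p = 0.104). ITGB2 itself fell to 323 ± 12.4 CPM in knockdown libraries, against 378 ± 4.05 in NC libraries (log2 −0.23 ± 0.03, edgeR adjusted p = 5.32e-07).

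The genes that degrade or end noncoding transcripts were read beside the AS1 RNAs. Of 13 exosome genes, 8 fell and EXOSC10, a nuclear exonuclease of the complex, rose. Their median log2 fold change was −0.20. EXOSC8 and EXOSC7, subunits of the exosome ring, fell by 0.51 ± 0.05 and 0.48 ± 0.06 on the log2 scale (edgeR adjusted p-values of 1.14e-09 and 2.51e-08), and the catalytic subunit DIS3 did not pass (113 ± 7.78 CPM in knockdown libraries and 114 ± 2.09 in NC libraries, edgeR adjusted p = 0.835). Of 11 genes of the NEXT and PAXT adaptors and of cap binding, 9 fell and RBM7, an RNA-binding subunit of NEXT, rose by 0.43 ± 0.08 (edgeR adjusted p = 1.51e-05), with a median of −0.15. NCBP1, the large cap-binding subunit, fell to 98.5 ± 2.20 CPM in knockdown libraries, against 140 ± 2.07 in NC libraries (edgeR adjusted p = 2.34e-12), and ZCCHC8, the NEXT scaffold, by 0.41 ± 0.05 (edgeR adjusted p = 2.17e-07). Of 14 Integrator genes 4 rose and 6 fell, and of 10 genes of termination and cleavage 2 rose and 3 fell. Of 8 genes of nonsense-mediated decay 5 rose and none fell, led by the endonuclease SMG6 at 48.9 ± 4.20 CPM in knockdown libraries, against 30.4 ± 1.08 in NC libraries (log2 0.68 ± 0.06, edgeR adjusted p = 1.82e-10). The background beside these counts is the 29.4% higher and 30.5% lower of all genes tested. Whether the levels of these genes bear on the AS1 RNAs was not tested.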

How the data were processed

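RNA sequencing was done on total RNA of the line MV4-11, taken up in Trizol and with libraries from an Illumina TruSeq kit for RNA, per the labels' protocols. HISAT2 2.0.5 and hg38 are named in the submitters' processing notes. The sources used here do not give the counter, its annotation or its strand setting. The authors deposited whole-number counts per Ensembl gene in 1 table, not normalized, per the file headers, and all 6 of its columns were matched to samples by group and replicate number.

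Symbols came from a gene-name table that matched 17862 of the 23227 IDs. Positions, exon lengths and overlaps came from GENCODE 29 on GRCh38, which lacks 2 members. The test was that of edgeR 4.0.16 under R 4.3.3 (filterByExpr, TMM, robust quasi-likelihood, two-sided), with Benjamini-Hochberg adjustment over 14635 genes and a threshold of 0.05. The biological coefficient of variation came to 0.0392. Levels are in CPM on TMM-scaled library totals, and a standard error is the log2 fold change over the root of F. The procedure was also run on counts simulated from the mean levels in these libraries, after the main fit. GTF2I-AS1, MIS18A-AS1, ZSCAN5A-AS1, SRD5A3-AS1 and PKP4-AS1 did not pass the filter. The symbol DNAJC9-AS1 stands on 2 IDs, both kept.

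The members, the lists and the naming rule were chosen with earlier results of these data known. The rule took the 10 most abundant members, the 10 largest rises and falls among called members with separated groups, up to 8 pairs in opposite and 8 in the same direction, 8 members set by name, and 4 head-to-head promoters. A few items that the rule or lists cover are not reported here. The alternatives were other scalings, filters, count limits, DESeq2 1.42.0, voom of limma 3.58.1, a threshold of 0.01, a replicate block, removal of members with exon overlap and each library left out. After the data were seen, removal of both libraries that stood apart, GENCODE 29 symbols and classes of counts were added. Same-numbered libraries did not deviate together, and no library pair was identical.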

Additional observations from a re-analysis of the deposited data

How the results depend on the processing

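The 435 members gave 105 higher and 36 lower calls. With DESeq2 there were 73 higher and 22 lower calls, over 7628 calls in all genes. Pairs called in the same direction then numbered 46, and those in opposite directions 15. At a threshold of 0.01 there were 76 higher and 22 lower calls, over 7351 calls in all genes. At that threshold 47 pairs were called in the same and 14 in opposite directions. Without members that share exonic bases with another gene, which leaves 78 tested, there were 21 higher and 8 lower calls, partners had 27 higher and 18 lower, and pairs 12 in the same and 8 in opposite directions. Fewer genes give lower counts by construction. The cause of the changed split of pairs and of the other differences was not tested. With each library left out in turn, AS1 RNAs had 88 to 96 higher and 28 to 36 lower calls, partners 135 to 144 and 112 to 121, and pairs 55 to 63 in the same and 17 to 26 in opposite directions, over 8156 to 8743 calls in all genes. Same-numbered libraries share only a number, with correlations of −0.00336, −0.0024 and −0.0613 and no library closest to its own number; a replicate block gave 102 higher and 33 lower AS1 RNAs, 65 pairs in the same and 22 in opposite directions, and 8490 calls in all. Without NC replicate 2 and knockdown replicate 3, which stood apart, there were 92 higher and 34 lower. Symbols of GENCODE 29 gave 81 and 32 on 306 members. MRPL20-AS1, without a call, ran from −0.009 (without NC replicate 2) to 0.084 (without NC replicate 3) with 1 library left out, and was −0.015 without NC replicate 2 and knockdown replicate 3. Of the 40 named members with a call, 33 kept it in every setting that gave a value, and none turned round. Other scalings moved the median of all genes by at most 0.0532 on the log2 scale. Low depth limits the members: 36 of them had under 30 counts in 1 of the groups.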

Other observations

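Related noncoding names were counted in the same fit. RNAs with the suffix -DT, transcribed away from a gene's promoter, had 40 higher and 25 lower of 197 tested, with a median log2 fold change of 0.12. Those with -AS2 had 6 higher and 2 lower of 22, and those with -AS 3 higher and 1 lower of 10. Those with -IT1, named from an intron, had 1 higher and 2 lower of 11, and both -OT1 RNAs rose, while neither -AS3 RNA passed. Over all genes tested, 29.4% were higher and 30.5% lower. By position, head-to-head AS1 RNAs with exons apart from the partner had 11 higher and 1 lower of 32, and those with overlapping exons 24 higher and 5 lower of 94. AS1 RNAs with overlapping exons and distant starts had 51 higher and 19 lower of 217, and those in introns 16 and 8 of 70. Whether these classes differ was not tested.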
